A study of Canis lupus familiaris with 18 samples.

Results

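The genes described here encode subunits of the glutamate receptors through which neurons signal to one another and, in gliomas, to tumor cells. They were taken by symbol from the deposited gene counts: the AMPA receptor subunits GRIA1, GRIA2, GRIA3 and GRIA4, the NMDA receptor subunits GRIN1, GRIN2A, GRIN2B, GRIN2C and GRIN3A, and CSPG4. They are 10 of the 29993 genes listed, and all 10 passed the filter on low counts. RNASeq libraries from high grade oligodendroglioma (HGO) of the forebrain were made from 11 French bulldogs and from a comparison group of 7 dogs, 4 boxers and 3 Boston terriers. All dogs shared the diagnosis, and in every case the tumor had been resected at surgery on entry to a clinical trial, then formalin-fixed and paraffin-embedded. No library of normal brain was analysed here, and each library was made from scrolls of a paraffin block, which can hold brain tissue together with tumor. Libraries are named by group and number. Comparison dogs 1, 3, 4 and 5 were boxers and comparison dogs 2, 6 and 7 were Boston terriers. French bulldogs 2 and 8 carry the same case number in their library names, and the study's list of dogs gives them the same age, sex and tumor site. They were counted as separate libraries in the tests between groups unless their sum is named. Their counts differed by more than sampling noise, but far less than those of any other pair of French bulldog libraries. The chi-square per degree of freedom was 9.54, against 33.6 or more in those other pairs, and pairs with comparison libraries were not examined. The labels give no age, the comparison libraries cannot be matched to the dogs of that list, and age was not used.

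AMPA and NMDA receptors are ion channels of 4 subunits that open when glutamate binds. AMPA receptors carry the fast current of most excitatory synapses, whereas NMDA receptors also need the membrane to be depolarised and admit calcium. GRIA2 subunits are normally edited at the RNA level, and channels that hold an edited GRIA2 pass little calcium. Every NMDA receptor contains GRIN1, and its GRIN2 and GRIN3 partners set its kinetics, with GRIN2A and GRIN2B the main partners in the forebrain. Oligodendrocyte precursors carry AMPA receptors and receive synapses from neurons, and their classical surface marker is CSPG4, the NG2 proteoglycan, which mural cells of vessels carry as well. Synapses between neurons and glioma cells have been described as carried mainly by AMPA receptors.

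Each library held between 8212452 and 13169880 counts on genes, and 3 counts, taken as the smallest level the depth could show, corresponded to 0.223 to 0.351 CPM, counts scaled to a fixed library size. Levels are given as CPM after TMM scaling. They were compared between libraries, gene by gene. Exon lengths were not used here, so counts or CPM of different genes that stand side by side give no order between the genes.

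French bulldog 6 stood apart from the other libraries in most of these genes. In GRIN1, GRIN2C and GRIN3A its 0 to 2 counts lay near those of other libraries, which held as few as 2 or 3. Its counts for the 10 genes summed to 20, against 3624 to 24832 in the other 17 libraries. It held 6 counts of GRIA2, 5 of CSPG4, 3 of GRIA1, 2 of GRIA3, 2 of GRIN2C, 1 of GRIA4 and 1 of GRIN2A, and none of GRIN1, GRIN2B or GRIN3A. Marker lists for 6 cell types were scored in each library by averaging, over the list, the z-scores of log2 CPM, and this library was lowest in 4 of them. Its neuron score was -2.38 (12 genes, -1.14 to 1.18 in the other libraries), its oligodendrocyte precursor score -3.61 (11 genes, -0.43 to 0.44), its myelin score -2.44 (10 genes, -1.23 to 1.69) and its astrocyte score -2.66 (9 genes, -0.81 to 1.09). The macrophage score was 2.52 (12 genes, -1.04 to 0.84), and the mural score of -0.45 (8 genes) lay within the range of the others (-1.43 to 1.20). OLIG2, a transcription factor of the oligodendrocyte lineage that marks oligodendroglioma, had 0 counts in French bulldog 6 and 87.7 CPM or more in the other French bulldogs and 149 CPM or more in the comparison group. SNAP25, a protein of the synaptic vesicle machinery, had 3 counts there, GFAP of astrocytes 30, and the macrophage scavenger receptor CD163 had 27819. OLIG2 was thus present in 17 of the 18 libraries, and results are given with and without French bulldog 6. In bulk tissue, fewer cells of a type and less RNA per cell cannot be told apart.

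The AMPA subunits GRIA2, GRIA3 and GRIA4 were present at 53.8 CPM or more in 17 of the 18 libraries, whereas each NMDA subunit fell to 20 counts or fewer in at least 1 of those libraries and GRIN1 exceeded 100 CPM in others. GRIA2 ranged from 53.8 to 1220 CPM in the 10 French bulldogs without number 6, with a median of 775, and from 649 to 1290 CPM with a median of 930 in the comparison group. French bulldog 11, at 53.8 CPM (543 counts), and French bulldog 9, at 318 CPM, were the low libraries, and the remaining 15 lay between 620 and 1290 CPM. GRIA3 ranged from 58.1 to 259 CPM (median 187) in those 10 French bulldogs and from 214 to 305 CPM (median 254) in the comparison group. Its lowest level was again in French bulldog 11, and the other 16 libraries lay at 137 CPM or above.

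GRIA4, the AMPA subunit with the narrowest spread in ratio, ranged from 128 to 522 CPM (median 276) in the 10 French bulldogs and from 286 to 594 CPM (median 385) in the comparison group. Its lowest levels were in French bulldogs 9, 1 and 11, at 128, 162 and 164 CPM. GRIA1 behaved differently from the other AMPA subunits. It ranged from 16.0 to 170 CPM (median 74.5) in the French bulldogs and from 58.3 to 144 CPM (median 110) in the comparison group, where comparison dog 7 was the low library and the other 6 lay at 106 CPM or above. The groups overlapped for all 4 AMPA subunits.

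GRIN1, the obligatory NMDA subunit, varied most, and in both groups. French bulldogs 1, 2, 5, 8 and 11 had 1.78, 2.90, 3.75, 5.29 and 3.07 CPM. French bulldogs 3, 4, 7, 9 and 10 had 42.0, 36.3, 119, 103 and 48.1 CPM. In the comparison group the level was 31.9, 13.9, 43.8, 104, 24.6 and 89.9 CPM in dogs 1 to 6 and 0.17 CPM, or 2 counts, in dog 7. The groups overlapped over most of their range. GRIN2A had 5.65, 1.00, 2.23, 3.66 and 4.36 CPM in French bulldogs 1, 2, 5, 8 and 11, and 13.0, 25.2, 64.2, 69.2 and 25.3 CPM in French bulldogs 3, 4, 7, 9 and 10. GRIN2B had 7.51, 2.23, 9.37, 6.01 and 1.98 CPM in the first of these sets of dogs and 69.9, 28.5, 86.7, 83.6 and 80.8 CPM in the second, so the order of the French bulldogs was much alike for the 3 genes. Comparison dog 7 was the lowest of its group in both, with 0.58 CPM (7 counts) of GRIN2A and 4.89 CPM (59 counts) of GRIN2B, where the other 6 dogs had 6.21 to 45.3 and 35.5 to 96.1 CPM. It also held 10109 counts of GRIA2 beside its 2 counts of GRIN1, and the highest GRIA3 level of all libraries, 305 CPM.

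GRIN3A, a modulatory NMDA subunit that lowers calcium entry, held 128 counts or fewer in every library. It had 0 counts in French bulldog 6, and the other 17 libraries ran from 0.20 CPM (2 counts, French bulldog 8) to 9.87 CPM (128 counts, French bulldog 9), and comparison dog 7 held 3 counts. GRIN2C, best known from the cerebellum and from astrocytes, ranged from 0.35 CPM (3 counts) to 8.96 CPM in the French bulldogs without number 6, with a median of 1.29. In the comparison group it ranged from 0.80 to 30.4 CPM with a median of 6.20. Its highest levels were in the Boston terriers 7 and 6, at 30.4 CPM (367 counts) and 14.1 CPM (168 counts), so GRIN2C was highest in the library where GRIN1, GRIN2A and GRIN2B were lowest in the comparison group. CSPG4 ranged from 16.9 to 136 CPM (median 50.0) in the French bulldogs and from 22.7 to 126 CPM (median 58.8) in the comparison group, and its 2 highest levels were in French bulldogs 8 and 2, the pair with a shared case.

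**Figure D1:**
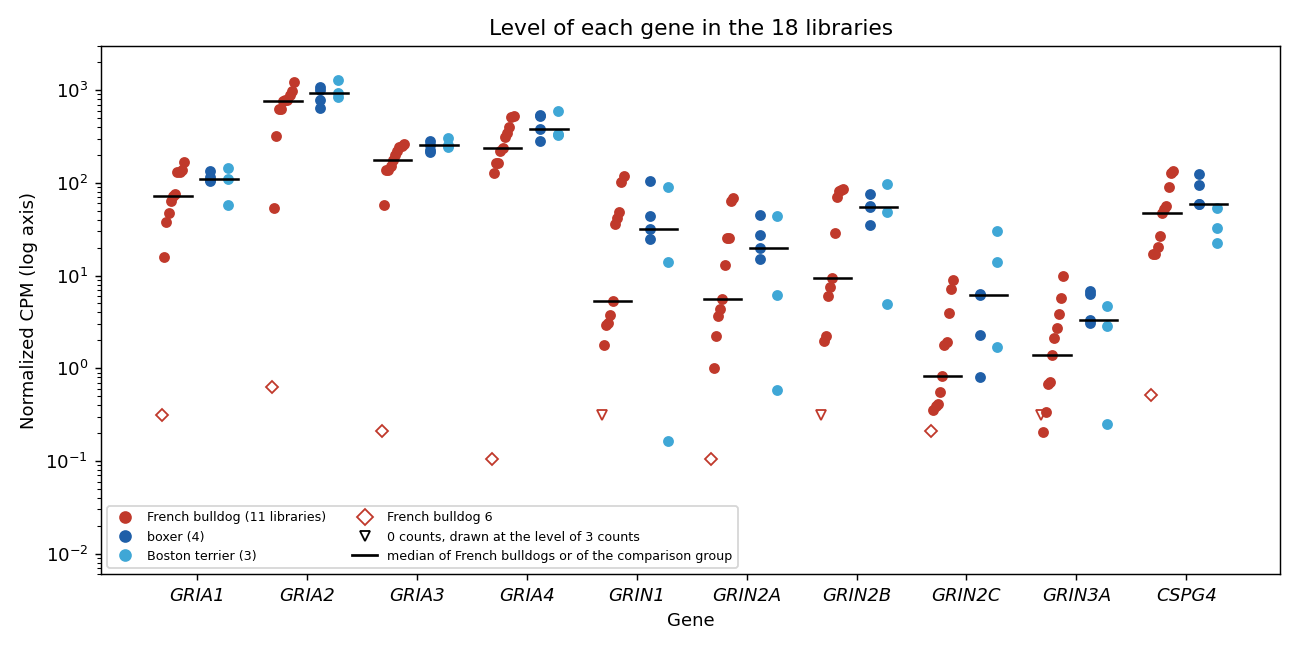
Level of each of the 10 genes in normalized CPM on a log axis, with 1 point per library, French bulldogs on the left and the comparison group on the right of each gene. Apart from French bulldog 6, the NMDA subunits spread more widely than GRIA2, GRIA3 and GRIA4 in both groups, and French bulldog 6 lies at or near the level of 3 counts throughout.

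To measure how widely each gene varied, French bulldog 6 was left out and French bulldogs 2 and 8 were summed, which left 16 units, 9 of French bulldogs and 7 of the comparison group. The SD of log2 CPM over these units was 0.57 for GRIA3, 0.67 for GRIA4, 0.85 for GRIA1 and 1.08 for GRIA2. It was 2.46 for GRIN1, 1.89 for GRIN2A, 1.83 for GRIN2B, 1.75 for GRIN2C and 1.398 for GRIN3A. Each NMDA subunit thus had a larger SD than any AMPA subunit, and CSPG4, at 0.98, lay among the AMPA subunits. The median SD over the 11266 tested genes with a symbol was 0.47, so all 10 genes varied more than the median gene. Between the highest and the lowest unit, on the log2 CPM scale with a prior count of 2, the ratio was 4.63 for GRIA4, 5.23 for GRIA3, 7.86 for CSPG4, 10.5 for GRIA1, 23.9 for GRIA2, 23.6 for GRIN3A, 44.5 for GRIN2B, 57.9 for GRIN2C, 91.7 for GRIN2A and 348 for GRIN1. The lowest levels of GRIN1, GRIN2C and GRIN3A rest on 2 or 3 counts, so for them the ratio of unmodified CPM between single libraries is given as well, which is not to be set beside the values above. The GRIN1 level of French bulldog 7 was 718 times that of comparison dog 7, with a 95% interval of 198 to 5933 that covers counting error only. For GRIN2C the ratio of the highest to the lowest library was 86.6 (29.4 to 422, on 3 counts), and for GRIN3A it was 48.4 (13.1 to 404, on 2 counts). Counting error adds to the spread of GRIN2C and GRIN3A, whose lowest libraries hold 2 or 3 counts, more than to that of the AMPA subunits.

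The NMDA subunits GRIN1, GRIN2A, GRIN2B and GRIN3A rose and fell with neuron markers. Over the 16 units the log2 level of GRIN1 correlated with the neuron score at Pearson r = 0.97 (Spearman rho = 0.99, two-sided permutation test with 100000 resamples, p = 1e-05, the smallest such a test can give, adjusted p = 0.0002 over 60 pairs of a gene and a score). GRIN2A followed at r = 0.95 (rho = 0.95, permutation p = 1e-05, adjusted p = 0.0002) and GRIN2B at r = 0.90 (rho = 0.89, permutation p = 1e-05, adjusted p = 0.0002). GRIN3A had r = 0.88 (rho = 0.81, permutation p = 3e-05, adjusted p = 0.00045). Without the 2 units farthest from the median neuron score, comparison dog 7 and French bulldog 1, these r were 0.98, 0.95, 0.88 and 0.82. Correlations were also computed inside each group, with p-values that are not adjusted. In the 9 units of French bulldogs r was 0.98, 0.94, 0.94 and 0.90 for GRIN1, GRIN2A, GRIN2B and GRIN3A (exact permutation p = 9.37e-05 to 0.00144), and in the 7 comparison dogs it was 0.96, 0.97, 0.91 and 0.87 (exact permutation p = 0.000198 to 0.0155). After adjustment over the 60 pairs of the comparison group, 2 pairs passed, GRIN1 and GRIN2A with the neuron score, and GRIN2B and GRIN3A did not. SNAP25 illustrates the range of the neuron markers themselves, with 4.55 CPM (55 counts) in comparison dog 7 and up to 363 CPM in the rest of that group.

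Among the AMPA subunits, GRIA1 correlated with the neuron score at r = 0.72 (rho = 0.76, permutation p = 0.00066, adjusted p = 0.00495) and at r = 0.75 without the 2 farthest units. GRIA2, GRIA3 and GRIA4 did not pass, with r = 0.10 (rho = -0.31, adjusted p = 0.875), r = 0.14 (rho = -0.20, adjusted p = 0.785) and r = -0.15 (rho = -0.22, adjusted p = 0.77), all by the same permutation test. CSPG4 had r = 0.06 (rho = 0.02, adjusted p = 0.893 by permutation). In all, 5 of the 10 genes reached r = 0.7 with the neuron score, whereas 7.25% of the 11266 tested genes with a symbol did.

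GRIN2C correlated with the neuron score at r = 0.41 over all units (rho = 0.51, permutation p = 0.111, adjusted p = 0.333), which did not pass. In the French bulldogs alone r was 0.91 (9 units, exact permutation p = 0.00191), and in the comparison group it was -0.18 (7 dogs, exact permutation p = 0.711), and the difference between the groups was not tested. Without comparison dog 7 and French bulldog 1 the pooled r was 0.87 (adjusted p = 0.00135 by permutation). It was 0.86 without comparison dog 7 alone and 0.37 without French bulldog 1 alone, so the low pooled value rested on comparison dog 7. That dog had the highest GRIN2C level, 30.4 CPM, and the lowest neuron score, -1.64. It is also part of the comparison group, whose r without it was not computed.

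GRIA4 went with the oligodendrocyte precursor markers. The precursor score gives equal weight to each scored gene of its list, which holds the growth factor receptor PDGFRA and the lineage factors OLIG1, OLIG2 and SOX10 among others. The correlation of GRIA4 with this score was r = 0.83 (rho = 0.80, permutation p = 4e-05, adjusted p = 0.00048). It was 0.75 without the 2 farthest units, French bulldog 9 and the summed French bulldogs 2 and 8. Within the French bulldogs r was 0.83 (9 units, exact permutation p = 0.00314), and within the comparison group it was 0.59 (7 dogs, exact permutation p = 0.161). GRIA2 had r = 0.63 (rho = 0.73, permutation p = 0.0446, adjusted p = 0.191) and did not pass by Pearson's r, while the adjusted p of its rho was 0.0143. This value turned on single units. French bulldog 11 lay far below the others in GRIA2, and without it r was 0.87. Without French bulldog 9 r was 0.64, and without the 2 farthest units it was 0.69 (permutation p = 0.00022), and in each of these cases the adjusted p passed.

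GRIA3 had r = 0.43 with the precursor score (rho = 0.25, adjusted p = 0.294 by permutation) and 0.63 without the 2 farthest units, where it passed (permutation p = 0.00727, adjusted p = 0.0485). GRIA1 and the 5 NMDA subunits had r between -0.50 and -0.06, and none passed. CSPG4, although itself a precursor marker, had r = 0.21 with the score of the other precursor markers (rho = 0.13, adjusted p = 0.653 by permutation). Within the comparison group its r with that score was -0.84 (7 dogs, exact permutation p = 0.0192), and its r with the mural score was 0.84 (exact permutation p = 0.0206), neither adjusted, and the corresponding values in the French bulldogs were 0.36 and -0.41. Only GRIA4, 1 of the 10 genes, reached r = 0.7 with the precursor score, against 2.5% of the 11266 genes with a symbol.

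**Figure D2:**
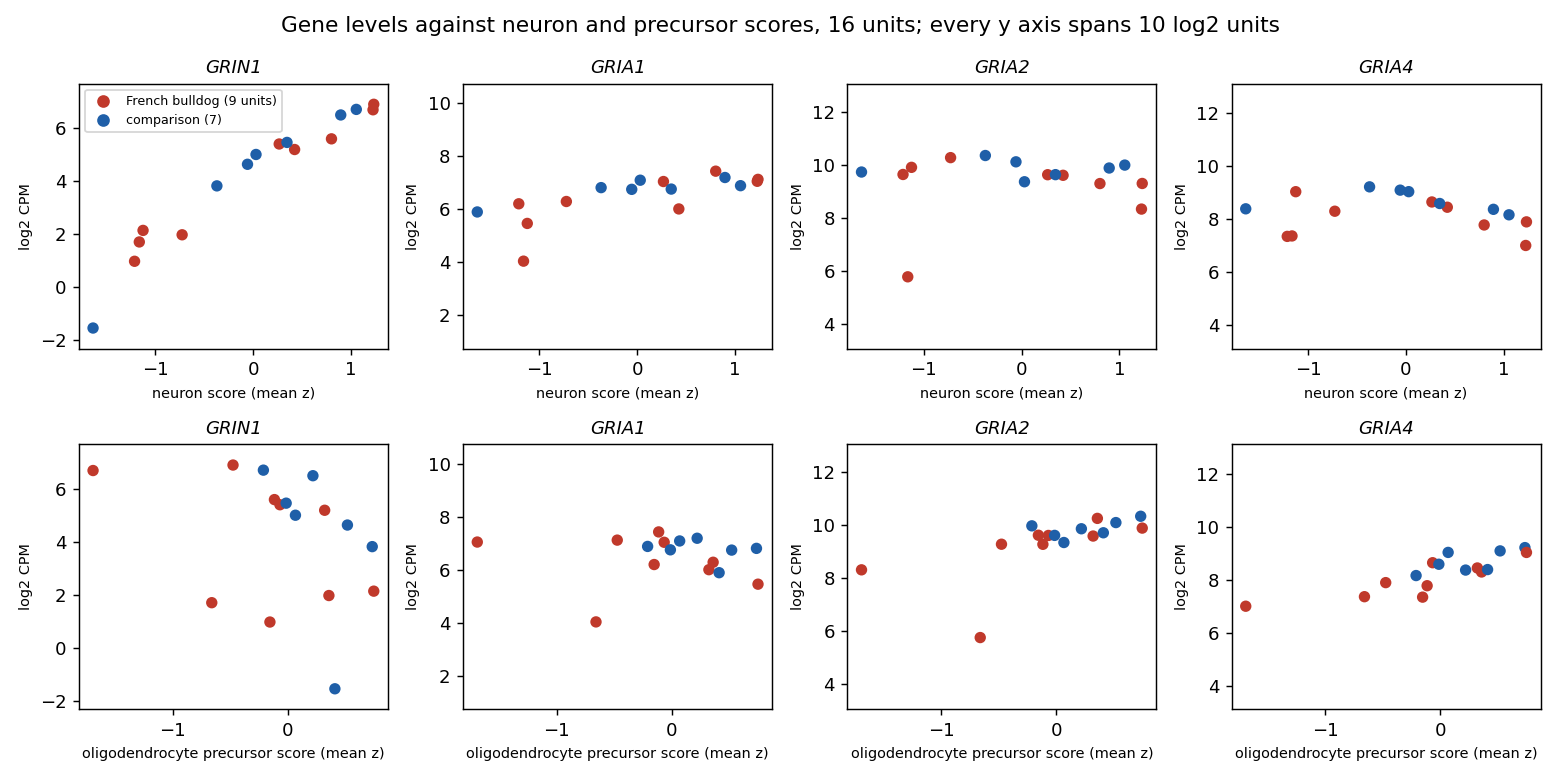
Log2 CPM of GRIN1, GRIA1, GRIA2 and GRIA4 (columns) against the neuron score (upper panels) and the oligodendrocyte precursor score (lower panels), as mean z-scores over 16 units, with every vertical axis spanning 10 log2 units. GRIN1 climbs steadily with the neuron score (r = 0.97) while GRIA2 shows no such relation (r = 0.10), and GRIA4 climbs with the precursor score (r = 0.83).

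The remaining scores gave calls for the astrocyte list only. GRIN3A (r = 0.83), GRIN2A (r = 0.77), GRIN1 (r = 0.73) and GRIN2B (r = 0.66) passed, with adjusted permutation p of 0.0008, 0.00274, 0.00867 and 0.0297. The astrocyte score and the neuron score themselves correlated at r = 0.73 over the same units, and their parts in these values were not tested. Without the 2 units farthest on the astrocyte score, comparison dog 7 and the summed French bulldogs 2 and 8, the r were 0.64, 0.57, 0.53 and 0.45 and none passed. The French bulldogs alone exclude comparison dog 7 but keep the summed French bulldogs 2 and 8. There r was 0.88, 0.78, 0.66 and 0.69 for GRIN3A, GRIN2A, GRIN1 and GRIN2B (9 units, exact permutation p = 0.00184, 0.0106, 0.0513 and 0.0382, not adjusted). Within the comparison group, which keeps comparison dog 7, r was 0.86, 0.85, 0.90 and 0.85 (7 dogs, exact permutation p = 0.055, 0.0391, 0.0282 and 0.0629, not adjusted). With the myelin score the correlations ran from -0.58 (GRIA4) to 0.55 (GRIN3A), with the macrophage score from -0.48 (GRIA4) to -0.05 (GRIN2C) and with the mural score from -0.25 (GRIA2) to 0.35 (GRIN2C), and none passed. The scores are not independent of one another. The precursor score correlated with the myelin score at r = -0.71 and with the neuron score at r = -0.44. In all, 10 of the 60 pairs passed.

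**Figure D3:**
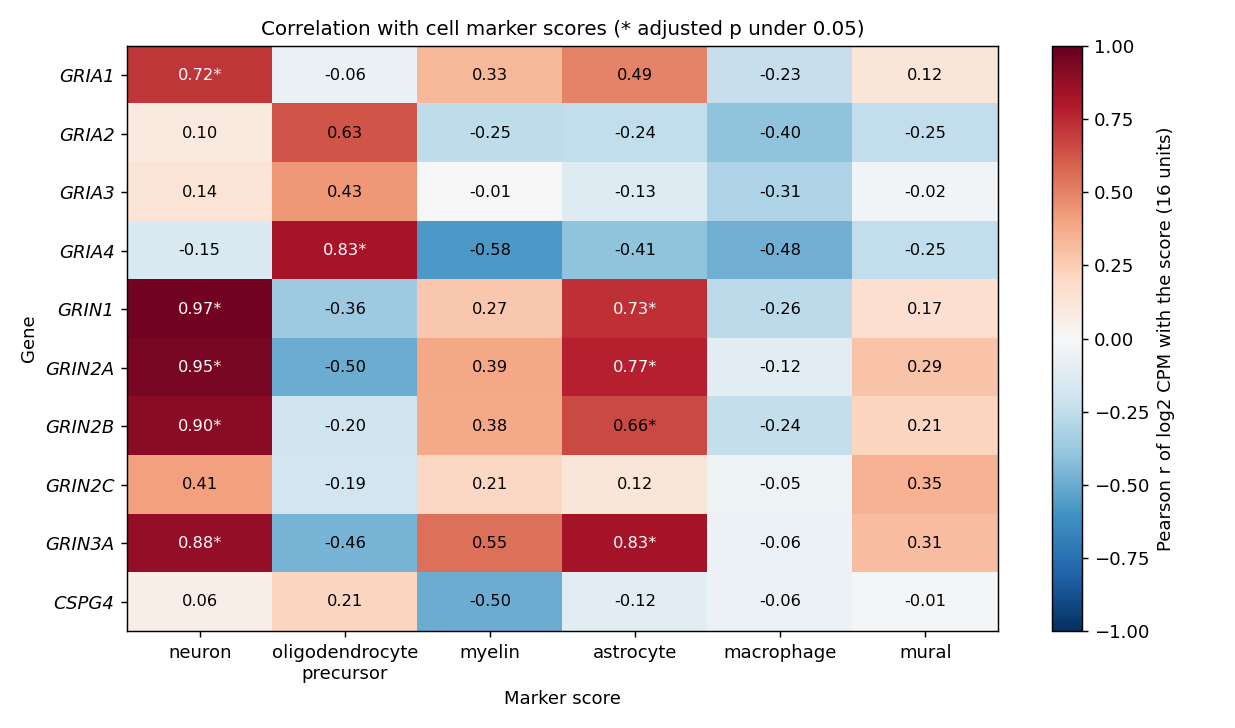
Pearson r of log2 CPM of each gene (vertical) with each of the 6 marker scores (horizontal) over 16 units, from -1 in blue to 1 in red, with an asterisk where the adjusted permutation p passed. The neuron column is dark for GRIN1, GRIN2A, GRIN2B, GRIN3A and GRIA1, and the precursor column for GRIA4.

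The members were also compared with each other. Of the 10 pairs of NMDA subunits, 6 passed (median r = 0.85), and all 6 were pairs among GRIN1, GRIN2A, GRIN2B and GRIN3A, with r from 0.84 to 0.95 (adjusted permutation p of 0.000579 or less over 45 pairs). The 4 pairs with GRIN2C had r of 0.26 to 0.48 and did not pass, although by rho GRIN2B with GRIN2C did (rho = 0.64, adjusted permutation p = 0.0362). These values turned on single units. Without the 2 units farthest from the median of the first gene of the pair, r was 0.90 for GRIN1 with GRIN2C, 0.86 for GRIN2A with GRIN2C, 0.22 for GRIN2B with GRIN2C and 0.75 for GRIN2C with GRIN3A. Without comparison dog 7, 18 of the 45 pairs among members passed in place of 12. Of the 20 pairs of an AMPA with an NMDA subunit, the 4 that passed all involved GRIA1, whose r was 0.90 with GRIN2B, 0.67 with GRIN1, 0.64 with GRIN3A and 0.61 with GRIN2A (adjusted permutation p = 0.000225 to 0.0408). Without the 2 units farthest from the median of GRIA1 these r were 0.86, 0.77, 0.80 and 0.68. With no unit left out, the median r over the 20 pairs was 0.10. Of the 6 AMPA pairs, GRIA2 with GRIA3 (r = 0.86, rho = 0.40) and GRIA2 with GRIA4 (r = 0.61, rho = 0.54) passed, each with an adjusted permutation p of 0.026. Without the 2 units farthest from the median of GRIA2 these r were 0.09 and 0.44, with no test. None of the 9 pairs with CSPG4 passed.

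The genes most like each member over the 16 units were named by Pearson r alone, with no test, and none of them is in a marker list. The closest to GRIN1 were DLGAP2, a postsynaptic scaffold protein (r = 0.99), CADPS, which primes synaptic vesicles (0.99), and CACNG3, an auxiliary subunit of AMPA receptors (0.98). GRIN2A was closest to MAP3K9 (0.99), ACTL6B, a subunit of the neuronal chromatin remodeller (0.98), and GALNT9 (0.97). GRIN2B was closest to the phosphodiesterase PDE1B (0.97), dendrin, DDN (0.97), and PRRT1 (0.96), and GRIN3A to the calcium sensor NCS1 (0.94), ISLR2 (0.92) and CCDC30 (0.92). GRIA1 went with SYN2, a synapsin of synaptic vesicles, TMEM130 and TAFA1 (each 0.92). GRIA2 was closest to the kinase RPS6KA6 (0.96), the neuregulin receptor ERBB4 (0.96) and BRINP3 (0.95), in a set of values that includes the low French bulldog 11. GRIA3 was closest to TMEM163 (0.93), RADX (0.92) and SNTG1 (0.90), and GRIA4 to the amino acid transporter SLC7A6 (0.86), IKBKE (0.86) and NKAPL (0.85). GRIN2C was closest to GREM1, a secreted antagonist of bone morphogenetic proteins (0.94), PLCL2 (0.86) and PSRC1 (0.86). CSPG4 had the weakest likenesses, with the metalloprotease ADAM12 (0.73), FAM149B1 (0.72) and COX15 (0.72).

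The ratio of GRIN2A to GRIN2B can be compared across libraries whatever the gene lengths, whereas in ratios of summed counts the lengths weight each subunit. The log2 ratio of summed AMPA to summed NMDA counts, which are not per length, ran from 1.41 in French bulldog 9 (9438 against 3540 counts) to 7.88 in French bulldog 2 (15048 against 63 counts). French bulldogs averaged 4.35 ± 2.27 (SD, n = 11) and the comparison group 3.96 ± 1.02 (SD, n = 7), a difference of 0.39 that lay within the spread (two-sided exact permutation test, p = 0.671, over 31824 splits). Without French bulldog 6, which held 12 AMPA and 3 NMDA counts, the difference was 0.66 (exact permutation p = 0.474). French bulldogs 2 and 8, which carry the same case number, enter as separate libraries with 7.88 and 6.65, and with their counts summed the difference was 0.089. GRIA2 made up 43.7% to 65.6% of the AMPA counts in the French bulldogs other than 6 and 11 and 40.9% to 60.3% in the comparison group. In French bulldog 11 it made up 18.4% (543 of 2947 counts, 95% Wilson interval 17.1% to 19.9%, for counting error only), below all of those libraries. The log2 ratio of GRIA2 to the other AMPA subunits averaged 0.04 ± 0.81 in French bulldogs (SD, n = 11) and 0.23 ± 0.37 in the comparison group (SD, n = 7, exact permutation p = 0.672). The log2 ratio of GRIN2A to GRIN2B was -1.64 ± 0.90 (SD, n = 7) there and -0.64 ± 1.12 (SD, n = 11) in French bulldogs, a difference of 1.00 that did not pass (exact permutation p = 0.0654, adjusted p = 0.196 over the 3 ratios). French bulldog 6 enters that mean with 1 count of GRIN2A and 0 of GRIN2B, and without it the difference was 0.84 (exact permutation p = 0.104). The ratio was lowest in comparison dogs 2 and 7, at -2.95 and -2.91, and highest in French bulldog 11, at 1.10, and the groups overlapped.

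No member differed between French bulldogs and the comparison group after adjustment over the 16495 genes tested by edgeR's quasi-likelihood test, against 1 gene in all (0.00606%). All 10 log2 fold changes, French bulldogs over the comparison group, were below 0, as were 46.3% of all genes tested. Their median was -0.59, beside 0.04 for all genes, and -0.42 without French bulldog 6. Without comparison dog 4, the values of GRIN1, GRIN2A and CSPG4 were above 0, as was that of GRIN2A without comparison dog 6 and those of GRIN2A, GRIN3A and CSPG4 against the Boston terriers alone. The neuron score averaged -0.14 in French bulldogs and 0.23 in boxers and Boston terriers (exact permutation p = 0.446) and the precursor score -0.19 and 0.30 (exact permutation p = 0.319). The mural score had the largest difference, -0.52 (exact permutation p = 0.171), and -0.49 without French bulldog 6. None of the 6 scores passed, and every adjusted p was 0.609. Without French bulldog 6 the difference, French bulldogs minus comparison group, moved from -0.37 to -0.15 for the neuron score (exact permutation p = 0.7096) and from -0.49 to -0.15 for the precursor score (exact permutation p = 0.198).

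The AMPA subunits had log2 fold changes of -0.47 ± 0.57 (SE) for GRIA1, -0.56 ± 0.65 for GRIA2, -0.61 ± 0.55 for GRIA3 and -0.65 ± 0.61 for GRIA4, with edgeR adjusted p of 0.708 to 0.799. Without French bulldog 6 the errors shrank, to 0.22 for GRIA3 and 0.27 for GRIA4, and the values were -0.45 (unadjusted p = 0.0521, adjusted p = 0.467) and -0.49 (unadjusted p = 0.0897, adjusted p = 0.535). GRIA1 and GRIA2 were then at -0.30 ± 0.35 and -0.40 ± 0.37 (SE, edgeR adjusted p = 0.801 and 0.720). By level, 7 of the 11 French bulldog libraries lay below every comparison dog in GRIA3 and 6 in GRIA4, and none lay above every comparison dog. Both counts include French bulldog 6. The GRIA3 count also takes French bulldogs 2 and 8, at 139 and 137 CPM, as separate dogs, although they carry the same case number. For the NMDA subunits GRIN1, GRIN2A, GRIN2B and GRIN3A the values were -0.41 ± 1.00, -0.21 ± 0.88, -0.64 ± 0.85 and -0.62 ± 0.75 (SE), with edgeR adjusted p of 0.796 to 0.962. CSPG4 had -0.25 ± 0.61 (adjusted p = 0.918).

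GRIN2C was the only member with an unadjusted p under 0.05, as had 10.6% of all genes tested. Of all genes tested, 3.55% had such a p and were lower in French bulldogs. Its level averaged 2.41 ± 3.04 CPM in French bulldogs (SD, n = 11) and 8.82 ± 10.5 CPM in the comparison group (SD, n = 7). The GRIN2C log2 fold change was -1.86 ± 0.78 (SE, p = 0.0285, edgeR adjusted p = 0.434). This rested in large part on Boston terrier 7. Without that dog the value was -1.10 (p = 0.171). Against the boxers alone it was -0.68, and against the Boston terriers alone -2.63. Against comparison dogs 1 to 4 alone it was -0.62 and against dogs 5 to 7 alone -2.65. These sets are separate series by the sample numbers in the library names, and both high Boston terriers are in the second. Boston terrier 2, of the first series, had 1.69 CPM and boxer 5, of the second, 2.27 CPM, and the parts of breed and library series were not tested.

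**Figure D4:**
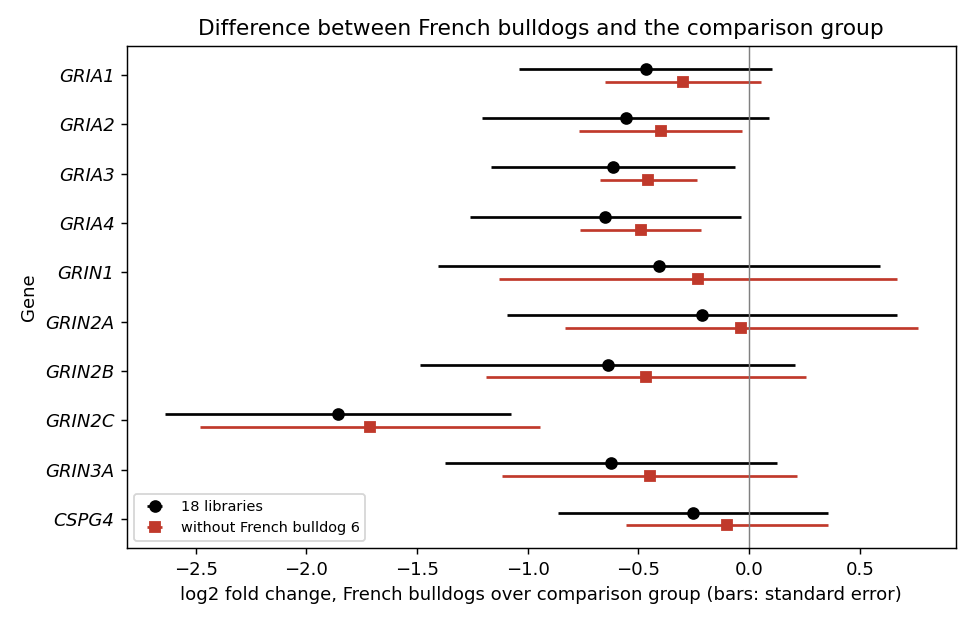
Log2 fold change of each gene, French bulldogs over the comparison group, from edgeR with its standard error as bars, in black for all 18 libraries and in red without French bulldog 6. All 10 values lie below 0, most bars reach 0, and GRIN2C lies farthest from it (-1.86).

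The wider glutamate pathway was followed with 7 gene lists of 67 genes in all, of which 55 were matched by symbol and 53 were tested. At an unadjusted p under 0.05 there were 4 of the 53, 1 above 0 and 3 below, beside 10.6% of all genes tested, and none passed after adjustment by edgeR. The median log2 fold change over the 53 was -0.25, and -0.11 without French bulldog 6. The auxiliary subunits of AMPA receptors had the lowest median, -0.62 over 9 genes, with 8 of 9 below 0, beside 46.3% of all genes tested. Without French bulldog 6 their median was -0.45, with 7 of 9 below 0. Among the auxiliary subunits GSG1L, which slows recovery of AMPA receptors from desensitisation, had -1.62 ± 0.60 over all libraries (SE, edgeR p = 0.0145, adjusted p = 0.433). CACNG8 had -0.80 ± 0.49 (p = 0.114). For the 8 other ionotropic subunits tested, median -0.26, the smallest p belonged to the kainate receptor genes GRIK4 (-0.46 ± 0.54, p = 0.410) and GRIK1 (-0.77 ± 0.92, p = 0.416). For the 7 metabotropic receptors, median -0.28, it belonged to GRM4 (1.44 ± 0.96, p = 0.149) and GRM7 (-0.85 ± 0.69, p = 0.233), and no gene of these lists was under 0.05.

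Scaffold and trafficking genes, 11 tested with a median of -0.21, held none under 0.05, with HOMER3 at -0.60 ± 0.43 (SE, edgeR p = 0.172) and DLG1 at 0.15 ± 0.14 (p = 0.293). In glutamate transport and metabolism, 8 tested with a median of -0.12, SLC7A11, the cystine and glutamate exchanger through which glioma cells release glutamate, had -0.98 ± 0.47 (p = 0.0481, adjusted p = 0.470). Without French bulldog 6 the p of SLC7A11 was 0.0731. In the list of synaptic adhesion and activity-linked growth factors, 8 tested with a median of -0.39, ADAM10, the protease that sheds neuroligin-3, had 0.43 ± 0.17 (p = 0.0176, adjusted p = 0.433). NTRK2, the receptor of brain-derived neurotrophic factor, had -1.06 ± 0.50 (p = 0.0472, adjusted p = 0.469), and without French bulldog 6 it had -0.90 ± 0.23 (p = 0.00119, adjusted p = 0.363). The RNA editing enzymes ADARB1, which edits GRIA2, and ADAR had -0.27 ± 0.42 (p = 0.531) and -0.11 ± 0.20 (p = 0.594).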

How the data were processed

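Per the labels, total RNA from paraffin scrolls was sequenced as paired-end reads after stranded library preparation with removal of ribosomal RNA. The authors trimmed reads with Trimmomatic 0.33, mapped them with HISAT2 2.1.0 to the canFam6 build and counted them per gene with featureCounts, and they deposited raw counts without normalization. How featureCounts treated strand and multi-mapping reads is not given in the sources used here, so reads from overlapping or antisense genes may be included.

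Groups came from the labels. The comparison of French bulldogs with the pooled boxers and Boston terriers used the quasi-likelihood test of edgeR 4.0.16 (R 4.3.3, TMM, filterByExpr, robust, two-sided, Benjamini-Hochberg over all genes kept, threshold 0.05). Standard errors were obtained as the absolute log2 fold change over the root of the F statistic. Correlations used log2 CPM with a prior count of 2 over 16 units and permutation tests (Python 3.11.15, scipy 1.17.1). Subunit ratios carried a pseudocount of 1. Alternatives were DESeq2 1.42.0 (the test of the study), limma-voom 3.58.1, another scaling, no filter, removal of 1920 small non-coding RNA genes, subsets of the libraries, and each library left out. Sample numbers in the library names put comparison dogs 1 to 4 and 5 to 7 in separate series (A and B), which were too small for correlations within them. Series B repeats sample numbers that French bulldogs 1 to 3 carry, so its libraries and theirs were numbered separately. Runs are not stated in the labels. The replicate numbers were not taken as pairs, since nothing in the labels ties equal numbers together and same-numbered libraries deviated with correlations of -0.50 to 0.21.

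The members, marker lists and pathway lists were chosen with earlier results of these data known. Named genes were all members, the 3 genes most like each, the 2 with the smallest p in each pathway list, and markers of each cell type, except 1 item that is not reported here. Symbols of the lists that were not matched, such as BDNF, GRIN3B and CACNG4, were not used here. The labels name each library as a separate dog but give French bulldogs 2 and 8 the same case number, so p-values measure the spread between these samples, which may in part be technical. In simulated data with 11 and 7 libraries, edgeR called 32 of the 194 genes given a 2-fold change, 142 of 195 given a 4-fold change and 170 of 184 given an 8-fold change. The changed genes were drawn at random from all genes kept, and every library was simulated as independent. These shares do not measure recovery of the members, which varied more than the median gene.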

Additional observations from a re-analysis of the deposited data

Results flagged for a closer look

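In 19 measures tested for an outlying library by Dixon's gap ratio in the 7 comparison dogs, at its 95% critical value, 6 passed, where chance gives about 5% of tests. In 5 of them the library was comparison dog 7, a Boston terrier, and it was the low one. The gap to the nearest dog, as a share of the group's range, was 0.657 for log2 CPM of GRIA1, 0.648 for GRIN1, 0.662 for GRIN2B and 0.697 for GRIN3A, and 0.596 for the astrocyte score. These measures are correlated, so they are not separate observations. The neuron score of that dog, -1.14, was also the lowest of its group but did not pass (gap 0.480). The sixth was the log2 ratio of GRIA2 to the other AMPA subunits, low in comparison dog 1, a boxer, at -0.53 (0.58). French bulldogs, at 11 libraries, were not tested in this way.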

How the results depend on the processing

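Not one member passed the adjusted threshold in any fit. The single gene called in the whole table became 58 by DESeq2, 2 by limma-voom, 3 without French bulldog 6, 5 over numbers 1 to 7, and 0 with French bulldogs 2 and 8 summed, against boxers only, against either library series of the comparison group (A, comparison dogs 1 to 4, and B, dogs 5 to 7), and with the replicate block, and it ran from 0 to 7 as each library was left out. Members at an unadjusted p under 0.05 numbered 0 against boxers only, against series A only and over numbers 1 to 7, and 0 to 1 as each library was left out. Pathway genes under 0.05 were 2 with DESeq2 size factors, with the sum of French bulldogs 2 and 8 and with the replicate block, 7 by limma-voom, 2 to 5 with each library left out, and 0 against boxers, Boston terriers, series A or series B only and over numbers 1 to 7 without the block. By limma-voom the GRIA1 log2 fold change was -1.24, the GRIA2 log2 fold change -1.59, the GRIA3 log2 fold change -1.42, the GRIA4 log2 fold change -1.59, the GRIN1 log2 fold change -1.03, the GRIN2A log2 fold change -0.78, the GRIN2B log2 fold change -1.89, the GRIN3A log2 fold change -1.22 and the CSPG4 log2 fold change -0.88, each over 1.5 times the edgeR value, and none passed after adjustment. Under the replicate block over numbers 1 to 7, which the libraries share as numbers only, the values were -2.09 for GRIN1, -1.72 for GRIN2A, -2.05 for GRIN2B, -1.88 for GRIN3A and -1.33 for CSPG4, where the same 14 libraries without the block gave -0.58, -0.50, -0.87, -1.37 and -0.62. For GRIA1, GRIA2, GRIA3 and GRIA4 the block gave -0.86, -0.62, -0.79 and -0.97, and those libraries without it -0.56, -0.36, -0.50 and -0.59. Log2 fold changes turned positive against Boston terriers only for GRIN2A (0.27), GRIN3A (0.011) and CSPG4 (0.55) and against series B only for CSPG4 (0.14). As each library was left out, GRIN1 ran from -0.84 to 0.016, GRIN2A from -0.64 to 0.11, GRIN3A from -1.13 (without French bulldog 9) to -0.39 (without comparison dog 4) and CSPG4 from -0.49 to 0.016, and the log2 ratio difference of GRIA2 to the other AMPA subunits from -0.31 to 0.033.

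Of the 60 correlations, 10 passed over the 16 units, while 28 passed with all 18 libraries, where French bulldog 6 sets most values, and 2 passed in the comparison group alone. Of the 45 pairs among members, 12 passed over the 16 units, 27 with all 18 libraries and 1 in the comparison group alone. With the neuron score the sign turned for GRIA2 by Spearman's rho (-0.31), for GRIA3 by rho (-0.20) and in the comparison group (-0.43), for GRIA4 with 18 libraries (0.56), for GRIN2C in the comparison group (-0.18), and for CSPG4 with 17 libraries (-0.060), in French bulldogs (-0.070) and without the 2 farthest units (-0.074). With the precursor score it turned, with all 18 libraries, for GRIA1 (0.87), GRIN1 (0.46), GRIN2A (0.43), GRIN2B (0.61), GRIN2C (0.30) and GRIN3A (0.40). It turned without the 2 farthest units for GRIA1 (0.27), GRIN2B (0.14), GRIN2C (0.10) and CSPG4 (-0.39), and in the comparison group for GRIA3 (-0.084) and CSPG4 (-0.84). With each unit left out, r with the neuron score ran from -0.47 to 0.21 for GRIA2, -0.28 to 0.31 for GRIA3, -0.32 to 0.033 for GRIA4 and, for the CSPG4 correlation with neuron score, -0.085 to 0.23, and r with the precursor score from -0.47 to 0.078 for GRIA1 and -0.14 to 0.33 for CSPG4. None of these had passed, and the causes were not tested. At the depth and spread of these libraries, a 2-fold difference was seldom called in simulated data for genes drawn at random. The members varied more than the median gene, and recovery was not measured for them. GRIN3A and GRIN2C lay within a few counts of the limit in several libraries.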

Other observations

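How steeply each gene followed the neuron markers was measured after the data were seen, as the slope of its log2 CPM on the mean log2 CPM of the neuron markers over the 16 units. A slope of 1 means that a gene changes by the same factor as those markers. The prior count of 2 narrows differences at the low end where counts are few, as in GRIN1, GRIN2C and GRIN3A. The slope was 1.28 ± 0.08 (SE) for GRIN1, 0.96 ± 0.08 for GRIN2A and 0.89 ± 0.11 for GRIN2B, followed by GRIN3A at 0.66 ± 0.10, GRIN2C at 0.37 ± 0.23 and GRIA1 at 0.33 ± 0.08. The slopes of GRIA2 (0.07 ± 0.15), GRIA3 (0.04 ± 0.08), GRIA4 (-0.05 ± 0.09) and CSPG4 (0.04 ± 0.14) lay within 1 SE of 0. GRIA1 had a shallower slope than GRIN1, GRIN2A, GRIN2B and GRIN3A, and one close to that of GRIN2C; the differences were not tested. In French bulldog 2, with 26 counts of GRIN1 and 9 of GRIN2A, GRIA4 reached 522 CPM, its highest level among the French bulldogs.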
